A study of Mus musculus with 6 samples.

Results

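Genes that anchor epithelial cells to the basement membrane were followed in RNA sequencing of mouse dental epithelial cells taken at postnatal day 0. They are the laminin chain genes Lama3, Lama5, Lamb3 and Lamc1, the integrin chain genes Itga3, Itga6, Itgb1 and Itgb4, and the plakin genes Dst and Plec. They were chosen by name, and all 10 were found among the 24959 genes of the count table and were among the 15930 with enough reads to test. The libraries fell into 3 controls, labelled WT, and 3 with a conditional knockout (cKO) of Pkm, labelled as a PKM knockout. Pkm encodes the pyruvate kinase that makes pyruvate in glycolysis. The question of the series is what the deletion does to gene expression in dental epithelium. The Cre driver, the cells it acts in, the deleted exons, the strain and any pooling of animals are not stated in the sources used here.

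Laminins are trimers of an alpha, a beta and a gamma chain and are the main adhesive proteins of the basement membrane. Lama3 and Lamb3 encode chains of the epithelial laminin of hemidesmosomes, the plaques that tie keratin filaments to the matrix. Lama5 pairs with a chain such as that of Lamb1 and with that of Lamc1 in a more widespread laminin. Itga6 and Itgb4 encode the integrin of the hemidesmosome, Itga3 and Itgb1 a laminin-binding integrin linked to actin, and Dst and Plec the plakins that join the Itgb4 tail to keratin. In the tooth, inner enamel epithelium and young ameloblasts sit on a basement membrane that is removed as enamel secretion starts, and loss of the human counterparts of Lama3, Lamb3, Itga6, Itgb4 or Col17a1 can cause skin blistering with enamel defects.

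RefSeq start sites (GRCm38.p6, a build other than the mm39 of the counts) were at hand for 5 of the 10 genes: Lama5, Lamb3, Itga3, Itgb1 and Dst. Those of 4 genes are shown to set Lamb3 and Dst, with the lower fold changes given below, beside Lama5 and Itgb1, with fold changes nearer to 0. Another Lamb3 start, within the transcript of the one shown, and that of Itga3 were left out, while an internal start of Dst was kept. Each sequence is the 250 bases before a start site, 5′ to 3′ on the gene's strand, and capitals mark the GC box GGGCGG or its complement CCGCCC. The windows are chr1:193301744-193301993 (plus strand) for Lamb3, chr1:34011345-34011594 and chr1:34160010-34160259 (plus strand) for the upstream and internal starts of Dst, chr2:180225860-180226109 (minus strand) for Lama5 and chr8:128685404-128685653 (plus strand) for Itgb1.
Lamb3: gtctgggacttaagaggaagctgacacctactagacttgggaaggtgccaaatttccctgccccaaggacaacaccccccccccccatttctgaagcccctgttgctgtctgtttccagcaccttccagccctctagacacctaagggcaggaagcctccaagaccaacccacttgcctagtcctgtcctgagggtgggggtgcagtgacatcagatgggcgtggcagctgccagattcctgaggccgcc
Dst, upstream start: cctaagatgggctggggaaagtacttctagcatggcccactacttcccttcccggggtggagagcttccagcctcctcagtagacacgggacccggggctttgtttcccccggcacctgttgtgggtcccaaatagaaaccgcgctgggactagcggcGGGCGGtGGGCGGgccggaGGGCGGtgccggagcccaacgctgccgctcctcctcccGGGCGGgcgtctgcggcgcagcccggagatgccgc
Dst, internal start: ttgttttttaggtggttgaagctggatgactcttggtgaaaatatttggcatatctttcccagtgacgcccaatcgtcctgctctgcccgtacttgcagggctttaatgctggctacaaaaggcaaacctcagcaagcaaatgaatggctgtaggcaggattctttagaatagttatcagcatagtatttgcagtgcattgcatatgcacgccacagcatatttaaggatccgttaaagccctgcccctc
Lama5: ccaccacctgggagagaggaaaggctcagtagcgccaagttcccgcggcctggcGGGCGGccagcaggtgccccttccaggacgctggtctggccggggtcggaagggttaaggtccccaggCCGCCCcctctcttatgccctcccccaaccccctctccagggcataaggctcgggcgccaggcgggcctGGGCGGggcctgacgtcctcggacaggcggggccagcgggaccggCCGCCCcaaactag
Itgb1: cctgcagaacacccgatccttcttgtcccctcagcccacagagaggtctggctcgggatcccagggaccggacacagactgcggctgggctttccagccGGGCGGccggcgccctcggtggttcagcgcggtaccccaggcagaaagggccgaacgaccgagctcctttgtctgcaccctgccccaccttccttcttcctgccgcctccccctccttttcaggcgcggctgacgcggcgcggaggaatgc
The Lamb3 window and that of the internal Dst start held 0 GC boxes and 2 and 5 CpG dinucleotides. The windows of the upstream Dst start, of Lama5 and of Itgb1 held 4, 4 and 1 GC boxes and 22, 19 and 21 CpG dinucleotides. Of 32851 windows of the same length before RefSeq start sites, 32.7% held a GC box on either strand, and their median was 6 CpG dinucleotides. A match describes these letters and is no measure of a factor's binding. The counts are per gene, so reads from the epithelial form of Dst and from its longer forms of nerve and muscle were not separated.

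Total counts ran from 30588350 to 39415700 per library. Pkm, which checks the labels, had 1281, 1185 and 1049 CPM (read counts relative to the scaled library size) in control replicates 1 to 3 and 309, 395 and 350.5 CPM in the cKO libraries (edgeR adjusted p 0.0109). Pkm cKO replicate 3 stood apart from the other libraries. It held 3066 CPM of 8 tested skeletal muscle genes, against 15.7 and 74.6 CPM in the other cKO libraries and 1.19 to 2.61 CPM in the controls. Myh3, an embryonic muscle myosin, had 30613 reads there and 0 to 7 reads in the controls. Its Krt15, a basal keratin, was also high, at 849.8 CPM against 16.6 to 40.1 CPM elsewhere. Fold changes without this library are given for the 10 genes, and for other genes where their printed fold change moved by more than 1.5 times. Where 2 sets of 3 values or 2 means follow each other, the controls come first and the cKO libraries follow, each in the order of replicates 1 to 3.

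No member differed between the groups at an adjusted p under 0.05 in the edgeR quasi-likelihood test, the threshold used throughout, which 0.552% of all tested genes passed. At an unadjusted p under 0.05, 4 of the 10 were lower in the cKO libraries (Lama3, Lamb3, Itgb4 and Dst) and 0 were higher, where 7.9% of all tested genes were lower and 17.5% passed in either direction. DESeq2 called Lama3 and Dst, where 4.55% of 24783 genes were called, and limma-voom called 0 members, where 0.0126% of the tested genes were called. The DESeq2 share also covers genes with too few reads for the edgeR test, so it is not over the same genes as the other shares. Fold changes are given on the log2 scale as cKO minus control, and 8 of the 10 lay below 0. Their median was -0.29, beside 0.0068 for all tested genes. The groups did not overlap for 4 members, all lower in the cKO libraries (Lama3, Lama5, Lamb3 and Itgb4), and 12.2% of all tested genes were lower without overlap. Without Pkm cKO replicate 3, 8 members still lay below 0 with a median of -0.34, and 6 did not overlap (Lama3, Lama5, Lamb3, Lamc1, Itgb1 and Itgb4), beside 19.5% of all tested genes. The labels call the replicates biological and say nothing of separate animals, so a p-value here measures only the spread between the samples.

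**Figure D1:**
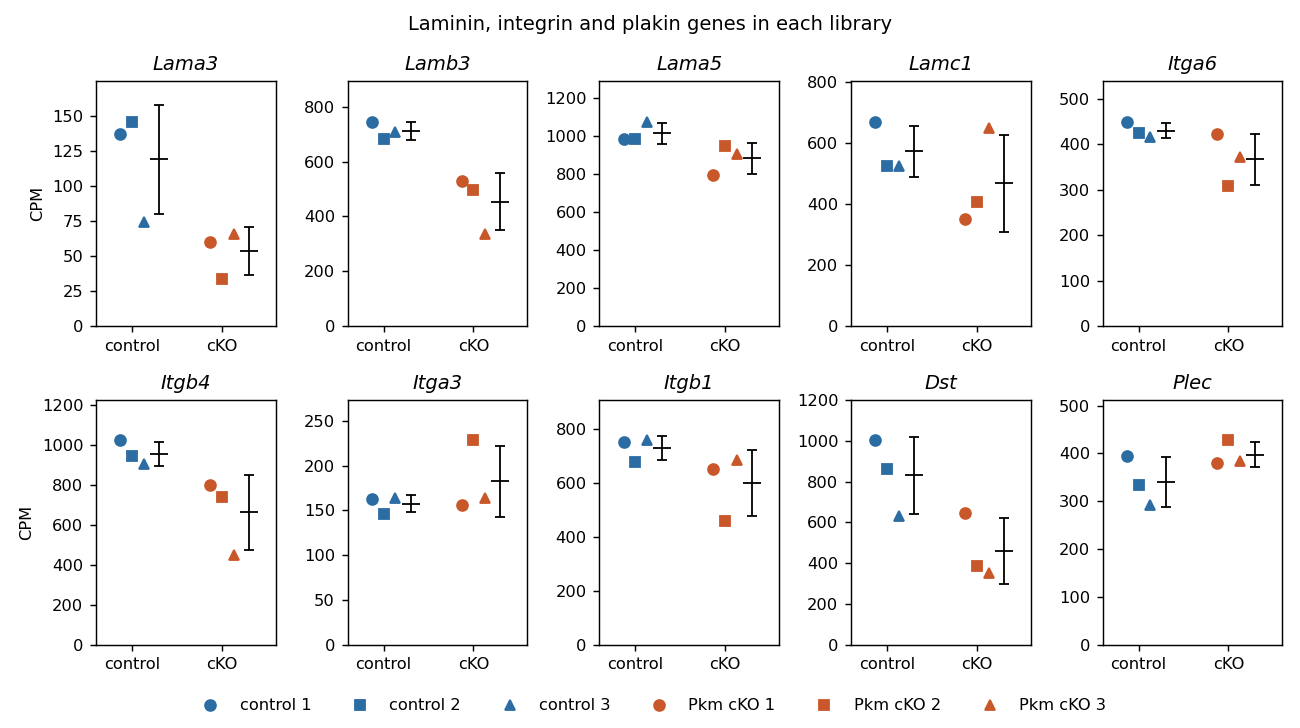
CPM (y axis from 0) of the 10 genes in the 3 control (blue) and 3 Pkm cKO (orange) libraries; symbols mark replicates 1 to 3, and black bars the mean ± SD. Every cKO library lies below every control for Lama3, Lamb3, Lama5 and Itgb4, and Plec and Itga3 have the higher mean in the cKO group.

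The epithelial laminin chains had the lowest fold changes among the laminin members. Summed over Lama3, Lama5, Lamb3 and Lamc1, the controls held 2532, 2333 and 2376 CPM and the cKO libraries 1729.8, 1881 and 1957 CPM, without overlap. Lama3 encodes the alpha chain specific to epithelial laminin and had 137, 146 and 74.2 CPM in the controls and 60.3, 33.9 and 65.7 CPM in the cKO libraries. Control replicate 3 was low for its group, close to the highest cKO library, and the groups did not overlap. The fold change was -1.16 (SE 0.320, 95% interval -1.90 to -0.42, edgeR adjusted p 0.131), or 2.23 times lower, with means of 119 ± 39.0 and 53.3 ± 17.0 CPM (SD, n = 3 each). Without Pkm cKO replicate 3 it was -1.33 (edgeR adjusted p 0.130). In bulk RNA, fewer cells of a type and less RNA per cell cannot be told apart.

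Lamb3, the beta chain of the same trimer, had 745, 682 and 706 CPM in the controls and 528, 497 and 336 CPM in the cKO libraries. The controls lay close together, and Pkm cKO replicate 3 was the lowest library. Its fold change was -0.65 (SE 0.183, 95% interval -1.06 to -0.24, edgeR adjusted p 0.123), with means of 711 ± 31.8 and 454 ± 103 CPM (SD, n = 3 each). Without Pkm cKO replicate 3 it was -0.46 (edgeR adjusted p 0.155).

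Lama5, the alpha chain of the widespread epithelial laminin, was at 982, 981 and 1073 CPM and 792, 945 and 907 CPM. The groups were separate by a small margin, and the fold change of -0.20 had a 95% interval of -0.52 to 0.12 (edgeR adjusted p 0.508), and was -0.21 without Pkm cKO replicate 3 and -0.13 without replicate 1. Lamc1, the gamma chain of most laminins in most tissues, had 668, 524 and 523 CPM and 349.5, 405 and 648 CPM. Pkm cKO replicate 3 reached the level of the controls, while the other cKO libraries lay below all of them. Its fold change was -0.29 (95% interval -0.80 to 0.22, edgeR adjusted p 0.553) and moved to -0.59 (edgeR adjusted p 0.129) without that library. It moved the other way, to -0.12, -0.19 and -0.17, without Pkm cKO replicate 1, Pkm cKO replicate 2 and control replicate 1.

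The other laminin chains did not share 1 direction. Of 6 chain genes outside the 10, 4 lay above 0 and 2 below, 0 passed the threshold (3 had an unadjusted p under 0.05 in edgeR, 2 passed in DESeq2 and 0 in limma-voom), and the median was 0.54 (0.15 to 0.65 with each library left out, lowest without Pkm cKO replicate 3). Lamb2, a beta chain typical of vessels, muscle and nerve synapses, had 135, 135 and 136 CPM in the controls and 178, 213 and 228 CPM in the cKO libraries. The controls were nearly identical and all cKO libraries were higher (fold change 0.61, SE 0.145, edgeR adjusted p 0.0889). Lamc3, a gamma chain of low abundance here, had 43.5, 47.7 and 39.7 CPM against 53.8, 72.8 and 85.6 CPM, again without overlap. For both, 11.2% of all tested genes were likewise higher without overlap. Lama2, the alpha chain of muscle and nerve basement membranes, averaged 39.8 ± 3.38 and 61.5 ± 25.0 CPM (SD, n = 3 each), with its highest value of 89.4 CPM in Pkm cKO replicate 3. Its fold change of 0.63 was 0.27 without that library. Lamb1 averaged 576 ± 34.5 and 504 ± 100.2 CPM. Lama4, a chain of vessels, and Lama1, an early embryonic chain, had fold changes of 0.47 and -0.35. That of Lama4 was 0.03 without Pkm cKO replicate 3, and that of Lama1 -0.073 without control replicate 1 and -0.53 without control replicate 3.

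**Figure D2:**
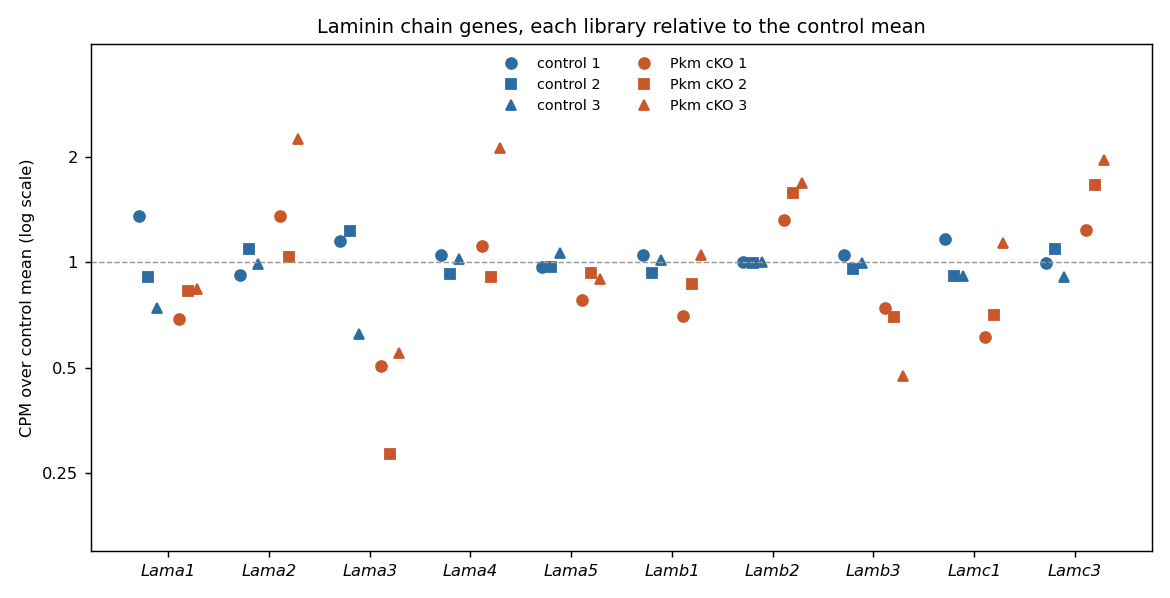
CPM of laminin chain genes, each divided by its control mean (y axis, log scale) in the control (blue) and Pkm cKO (orange) libraries, with symbols for replicates 1 to 3. Lama3 and Lamb3 lie below the controls in all cKO libraries and Lamb2 and Lamc3 above them, while Lama2 and Lama4 stand high in Pkm cKO replicate 3.

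The 4 integrin members summed to 2386, 2193 and 2243 CPM in the controls and 2031, 1733 and 1668 CPM in the cKO libraries, again without overlap, and Itgb4 and Itgb1 made up most of it. Of the 4, only Itgb4 was itself without overlap, and no share over all genes was computed for sums. Itgb4, whose long cytoplasmic tail binds the plakins, had 1022, 942 and 904 CPM in the controls and 800.0, 738 and 447 CPM in the cKO libraries. The groups did not overlap, and Pkm cKO replicate 3 was far below the other cKO libraries. The fold change was -0.53 (SE 0.210, 95% interval -0.999 to -0.06, edgeR adjusted p 0.233), with means of 956 ± 60.6 and 662 ± 188 CPM (SD, n = 3 each). Without Pkm cKO replicate 3 it was -0.30 (edgeR adjusted p 0.325). Itga6, the alpha chain that pairs with either Itgb4 or Itgb1, stood at 449, 424 and 416 CPM and 422, 308 and 371 CPM. Pkm cKO replicate 1 lay within the controls, and the fold change was -0.23 (95% interval -0.57 to 0.12, edgeR adjusted p 0.486), or -0.22 without Pkm cKO replicate 3. It ranged from -0.34 when Pkm cKO replicate 1 was left out to -0.11 when replicate 2 was.

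The chains of the actin-linked laminin receptor had fold changes of opposite sign, and the groups overlapped for both. Itgb1, the partner of many alpha chains, had 752, 679.9 and 759 CPM and 654, 459 and 685 CPM, with Pkm cKO replicate 2 well below the rest. Its fold change was -0.28 (95% interval -0.67 to 0.11, edgeR adjusted p 0.441), or -0.38 without Pkm cKO replicate 3 and -0.12 without replicate 2. Itga3, its laminin-binding partner, had 163, 146 and 164 CPM and 156, 228 and 164 CPM, where only Pkm cKO replicate 2 lay outside the range of the controls. Its fold change was 0.21 (95% interval -0.17 to 0.60, edgeR adjusted p 0.565), or 0.02 without Pkm cKO replicate 2 and 0.29 without Pkm cKO replicate 3.

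Among the 15 other integrin chain genes 10 lay above 0 and 5 below, with a median of 0.15 and 0 past the threshold (4 had an unadjusted p under 0.05 in edgeR, 4 passed in DESeq2 and 0 in limma-voom). The median ran from -0.029 to 0.31 with each library left out, lowest without Pkm cKO replicate 3. Itgb6, an epithelial chain needed for normal enamel, had 67.4, 52.7 and 40.0 CPM against 37.3, 23.3 and 17.4 CPM and did not overlap (fold change -1.04, SE 0.296, edgeR adjusted p 0.129). Itga1, of a collagen receptor, did not overlap either, with 72.6, 84.7 and 68.0 CPM against 32.8, 56.4 and 42.8 CPM. For both, 12.2% of all tested genes were likewise lower without overlap. Itgb3 (fold change 1.15) and Itga7 (1.53), the muscle laminin receptor chain, were higher on average. Itga7 was at 21.0 CPM in Pkm cKO replicate 3, above the 3.01 to 4.52 CPM of the other libraries, and its fold change was 0.35 without that library. The abundant chains Itgb5, Itgav and Itga2 averaged 406 ± 35.5, 151 ± 11.0 and 152 ± 18.7 CPM in the controls and 424 ± 29.0, 128 ± 23.0 and 126 ± 24.0 CPM in the cKO libraries (SD, n = 3 each).

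The plakins had fold changes of opposite sign, and their sum was 1398, 1196 and 923 CPM in the controls and 1027, 812 and 735 CPM in the cKO libraries, where cKO replicate 1 lay above control replicate 3. Dst, which encodes the hemidesmosome plaque protein BPAG1 and cytoskeletal linkers of nerve and muscle, had 1003, 863 and 630.4 CPM in the controls and 647, 384 and 350.3 CPM in the cKO libraries. Both groups were widely spread, and Pkm cKO replicate 1 lay just above control replicate 3. Its fold change was -0.85 (SE 0.259, 95% interval -1.44 to -0.27, edgeR adjusted p 0.144), with means of 832 ± 188 and 460.4 ± 162 CPM (SD, n = 3 each). Dst passed without Pkm cKO replicate 1, at -1.18 with an edgeR adjusted p of 0.0265, in a fit that called 3.92% of its genes, and its adjusted p ran from 0.0229 to 0.498 over the alternatives. Without Pkm cKO replicate 3 it was -0.68 (edgeR adjusted p 0.223). Plec, which encodes plectin and is made in most tissues, muscle included, had 395, 333 and 293 CPM and 380.1, 427 and 384 CPM. The cKO values lay within and above the controls, with a fold change of 0.22 (95% interval -0.12 to 0.57, edgeR adjusted p 0.499), or 0.25 without Pkm cKO replicate 3, 0.34 without control replicate 1 and 0.12 without control replicate 3.

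**Figure D3:**
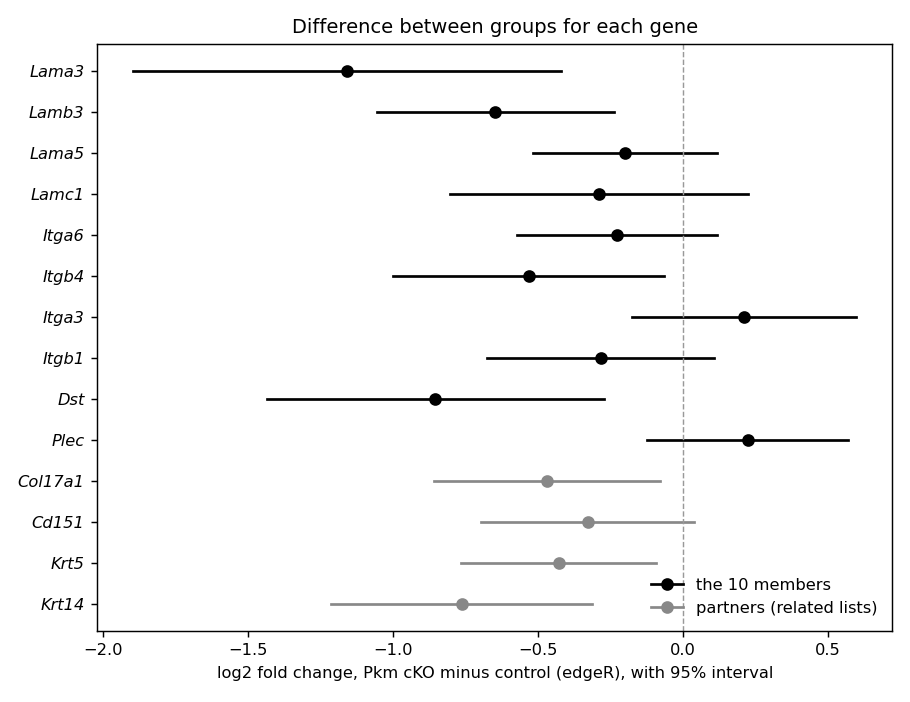
Log2 fold change (x axis, Pkm cKO minus control) with its 95% interval for the 10 genes (black) and for 4 partners of the related lists (grey). The intervals of Lama3, Lamb3, Itgb4 and Dst among the 10, and of Col17a1, Krt5 and Krt14, lie below 0 before adjustment, and those of Itga3 and Plec span 0 with estimates of 0.21 and 0.22.

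Ratios of reads within a library do not depend on how libraries are scaled, and the pairs were chosen after expression values had been seen. Dst had 2.54, 2.59 and 2.15 times the reads of Plec in the controls and 1.70, 0.900 and 0.911 times in the cKO libraries. These ranges did not overlap, whereas those of Dst alone did. Of 7 ratios computed this was the 1 without overlap, and no share over all genes was computed for ratios. The ratio of Lama3 to Lama5 was 0.140, 0.149 and 0.0691 against 0.0762, 0.0358 and 0.0725, and control replicate 3 fell among the cKO libraries. The ratio of Itgb4 to Itga6 was 2.28, 2.22 and 2.17 against 1.90, 2.39 and 1.20, steady in the controls and spread from below to above them in the cKO group.

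Levels of different genes were compared as CPM per kb of exon (GENCODE M21 exon lengths of GRCm38, used for length only). Itgb1 was the most abundant member in the controls at 179 ± 10.7 CPM per kb (SD, n = 3), followed by Itgb4 at 136 ± 8.63, Lamb3 at 108 ± 4.80 and Lama5 at 88.9 ± 4.64. The control ranges of these 4 neighbours did not touch. Lamc1 (69.1 ± 10.1), Itga6 (47.7 ± 1.91) and Itga3 (27.6 ± 1.74) came next, each again apart from its neighbours among the 10. Dst (20.2 ± 4.58) and Plec (18.8 ± 2.85) overlapped, and Lama3 was lowest at 11.1 ± 3.63. The beta chains of both integrins were thus more abundant per length than the alpha chains Itga6 and Itga3. In the cKO libraries Lamb3 averaged 68.6 ± 15.6 and Lama5 77.4 ± 6.99 CPM per kb, and their ranges overlapped. Lengths cover every annotated exon of a gene, so a gene whose forms differ, such as Dst, has a lower value than its main transcript would.

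**Figure D4:**
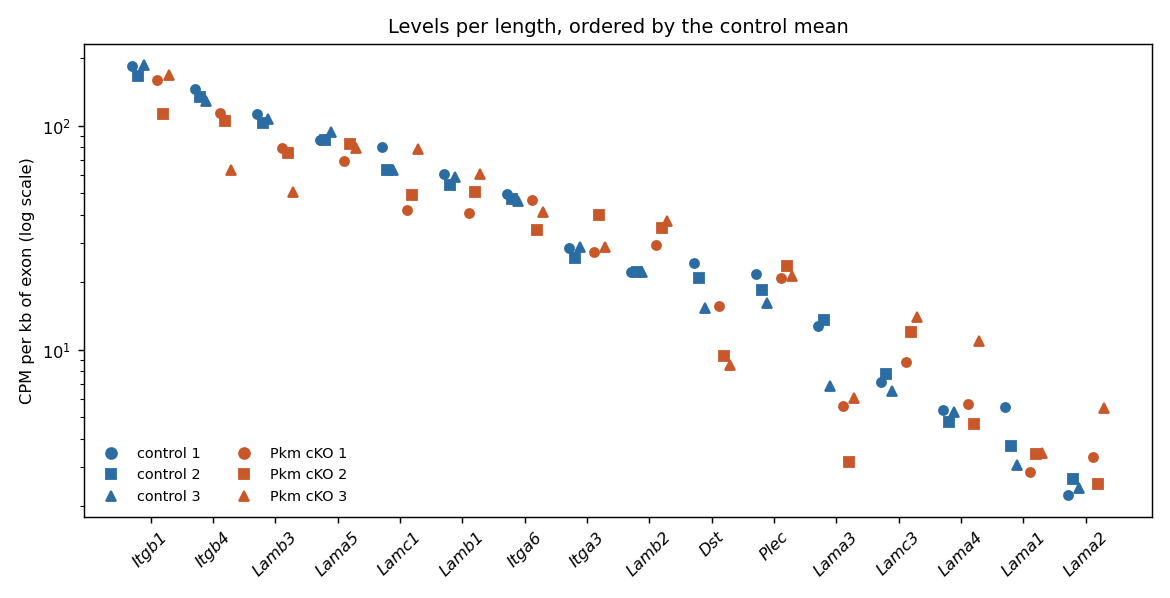
CPM per kb of exon (y axis, log scale) of the 10 genes and of other laminin chains in control (blue) and Pkm cKO (orange) libraries, ordered by the control mean, with symbols for replicates 1 to 3. Itgb1, Itgb4, Lamb3 and Lama5 lead in the controls, and Lama3 lies below the other 9 members.

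Genes listed as hemidesmosome partners mostly stood lower. Of the 9 genes on that list 7 lay below 0, with a median of -0.38 (-0.42 without Pkm cKO replicate 3). The list was broad and also held Klhl24 and Evpl, the 2 above 0, and Ppl and Macf1, below 0 with overlap. Without Pkm cKO replicate 3, 8 of the 9 lay below 0. Without overlap 5 were lower, beside 12.2% of all tested genes. By edgeR 0 passed the threshold (5 had an unadjusted p under 0.05 in edgeR, 1 passed in DESeq2 and 0 in limma-voom). Col17a1, the transmembrane collagen of the plaque, had 626, 531 and 482 CPM in the controls and 452, 318 and 414 CPM in the cKO libraries (fold change -0.47, SE 0.175, edgeR adjusted p 0.212). Cd151, a tetraspanin that associates with laminin-binding integrins, had 280.0, 256 and 264 CPM and 225, 243 and 169 CPM (fold change -0.33, or -0.18 without Pkm cKO replicate 3). The basal keratins that attach to the plaque, Krt5 and Krt14, had fold changes of -0.43 (SE 0.151) and -0.76 (SE 0.202). Col7a1, of the anchoring fibrils beneath the basement membrane, averaged 521 ± 26.1 against 386 ± 59.8 CPM (SD, n = 3 each).

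Other basement membrane genes were mixed, with 14 of 24 tested genes above 0, 10 below and a median of 0.21 (-0.10 to 0.33 with each library left out, lowest without Pkm cKO replicate 3). By edgeR 0 passed the threshold (10 had an unadjusted p under 0.05 in edgeR, 4 passed in DESeq2 and 0 in limma-voom). Npnt, a matrix ligand of integrins, had the lowest p of them and stood at 929, 779.8 and 866 CPM against 532, 513 and 594 CPM (fold change -0.65, SE 0.145, edgeR adjusted p 0.0781). Fras1, part of a complex beneath epithelial basement membranes, averaged 1211 ± 125 and 814 ± 203 CPM, and its partner Frem2 1371 ± 92.1 and 1036 ± 243 CPM. Frem1, of the same complex, stood higher, with 63.3, 77.7 and 94.9 CPM against 115, 123 and 115 CPM. Ntn4, a netrin that binds laminin, had a fold change of -0.92 (SE 0.258). Smoc1, a calcium-binding matrix protein, was under 1 CPM in every control and had 0.969, 1.19 and 6.90 CPM in the cKO libraries. Sparc, the most abundant gene of the list and a product of mesenchyme, averaged 2537 ± 314 and 2759.7 ± 973 CPM.

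Laminin receptors other than integrins showed 4 of 7 genes below 0 (median -0.04, -0.12 to 0.11 with each library left out) and 0 past the threshold (1 had an unadjusted p under 0.05 in edgeR, 0 passed in DESeq2 and 0 in limma-voom). Bcam, a receptor for the Lama5 chain, had 2546, 2055 and 2348 CPM and 2367, 1758 and 940.2 CPM, with Pkm cKO replicate 3 far below the other 5 libraries. Rpsa, a ribosomal protein also named as a laminin receptor, averaged 1963 ± 277 and 2203 ± 288 CPM and the syndecan gene Sdc1 613 ± 35.6 and 598 ± 128 CPM. Sgce (fold change 0.68) and Sdc4 (0.33) were above 0, at 0.41 and 0.19 without Pkm cKO replicate 3. Of 22 adaptor genes of integrin adhesions 14 lay above 0 and 8 below, with a median of 0.05 (-0.0033 to 0.071 with each library left out, lowest without Pkm cKO replicate 3) and 0 past the threshold (9 had an unadjusted p under 0.05 in edgeR, 2 passed in DESeq2 and 0 in limma-voom). The lowest p belonged to Parvb, which encodes parvin beta (96.4, 74.7 and 71.4 CPM against 58.5, 48.0 and 42.3 CPM), and to the epithelial kindlin gene Fermt1 (54.2, 43.2 and 47.7 CPM against 32.0, 27.7 and 34.0 CPM), neither with overlap. For both, 12.2% of all tested genes were likewise lower without overlap. Ptk2, the focal adhesion kinase, had a fold change of -0.40 (SE 0.137, edgeR adjusted p 0.180) and the tensin gene Tns4 one of 0.76 (SE 0.268). The abundant adaptors Flna, Actn4 and Tln1 had fold changes of -0.34, -0.23 and 0.08, and without Pkm cKO replicate 3 those of Actn4 and Tln1 were -0.11 and 0.14.

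The summed markers of dental epithelium and erythroid cells were lower, and those of immune cells and skeletal muscle higher, in every cKO library than in any control. The sums of the other lists overlapped, and the part of any of them in the values of the 10 genes was not tested. The 18 genes of dental epithelium summed to 19303, 16920.3 and 17852 CPM in the controls and 13395, 14870.2 and 14175 CPM in the cKO libraries, without overlap. Among them 12 lay below 0 (median -0.12, -0.24 to -0.067 with each library left out, -0.22 without Pkm cKO replicate 3 and -0.24 without control replicate 1), 5 were lower without overlap and 0 passed the threshold in edgeR (5 had an unadjusted p under 0.05 in edgeR, 2 passed in DESeq2 and 0 in limma-voom). Of all tested genes, 12.2% were lower without overlap. Krt5, Krt14 and Krt17 made up most of the sum of the 18 genes, and Krt5 and Krt14 are also on the list of hemidesmosome partners. Without Krt5, Krt14 and Krt17 the sums of the groups overlapped. Pkm cKO replicate 3, with 849.8 CPM of Krt15, then reached the level of the controls. Other epithelial genes, named after their values were seen, were uneven: Cdh1 averaged 1123 ± 139 and 655 ± 37.5 CPM, and Epcam 258 ± 48.5 and 249 ± 44.7 CPM (SD, n = 3 each). The labelled tissue was thus present by its markers in both groups, beside abundant mesenchymal RNA.

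The 17 mesenchymal genes summed to 22442 to 35921 CPM in the controls and 19628 to 44216 CPM in the cKO libraries, with 13 of 17 above 0, 11 higher without overlap and 0 past the threshold (11 had an unadjusted p under 0.05 in edgeR, 6 passed in DESeq2 and 0 in limma-voom). Of all tested genes, 11.2% were higher without overlap, a share to set beside the immune and muscle counts below too. The most abundant mesenchymal genes, Col1a1, Col1a2 and Dspp, had fold changes of -0.086, -0.14 and -1.49, or 0.24, 0.068 and -0.93 without Pkm cKO replicate 3. The 11 endothelial genes, led by Cdh5, Pecam1 and Tie1, summed to 428 to 505 and 462 to 774 CPM, with 10 above 0, or 7 without Pkm cKO replicate 3, where their median went from 0.27 to 0.016. By edgeR 0 passed the threshold (0 had an unadjusted p under 0.05 in edgeR, 0 passed in DESeq2 and 0 in limma-voom). The 9 genes of pericytes and smooth muscle, led by Acta2, Notch3 and Rgs5, summed to 555 to 668 and 449.5 to 784 CPM. The highest sum of both vascular lists was that of Pkm cKO replicate 3. For pericytes and smooth muscle it included 151 CPM of Des, which had 1.04 to 8.79 CPM in the other libraries. Of those 9 genes 5 lay above 0 and 4 below, Acta2 (-0.80) and Tagln (-0.99) among the latter. Of 12 Schwann cell and nerve genes 9 were tested and summed to 379 to 507 and 235 to 433 CPM, led by Tubb3, Mbp and Erbb3. Their defining gene Sox10 had 0 to 4 reads in the controls and 10 to 71 in the cKO libraries. The 11 immune genes, led by Csf1r, Laptm5 and Cd68, summed to 78.5 to 87.2 and 130.5 to 216 CPM. Of these, 8 were higher without overlap and 1, the complement gene C1qc, passed the threshold (fold change 1.22, edgeR adjusted p 0.0487; 7 had an unadjusted p under 0.05 in edgeR, 7 passed in DESeq2 and 0 in limma-voom). That 1 call was lost with DESeq2-type size factors (adjusted p 0.0507), in edgeR without robust estimation (0.0641), without Pkm cKO replicate 2 (0.0550) and without any 1 of the controls (0.178 to 0.283). The 8 tested skeletal muscle genes (of 10 listed), led by Acta1, Myh3 and Myh8, were each higher in each cKO library than in any control. Ttn and Myog did not pass the read filter and are not in the sums. They had 6800 and 953 reads in Pkm cKO replicate 3, and at most 16 and 13 in any other library. Erythroid genes, led by Hbb-bs, Hba-a1 and Hbb-bt, summed to 574 to 801 and 267 to 353 CPM, and these 3 of 5 tested genes were called lower (5 had an unadjusted p under 0.05 in edgeR, 5 passed in DESeq2 and 0 in limma-voom). That count was 1 with DESeq2-type size factors, 2 with upper-quartile scaling, 1 and 2 without Pkm cKO replicates 2 and 3, and 0 in edgeR without robust estimation and without any 1 of the controls.

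**Figure D5:**
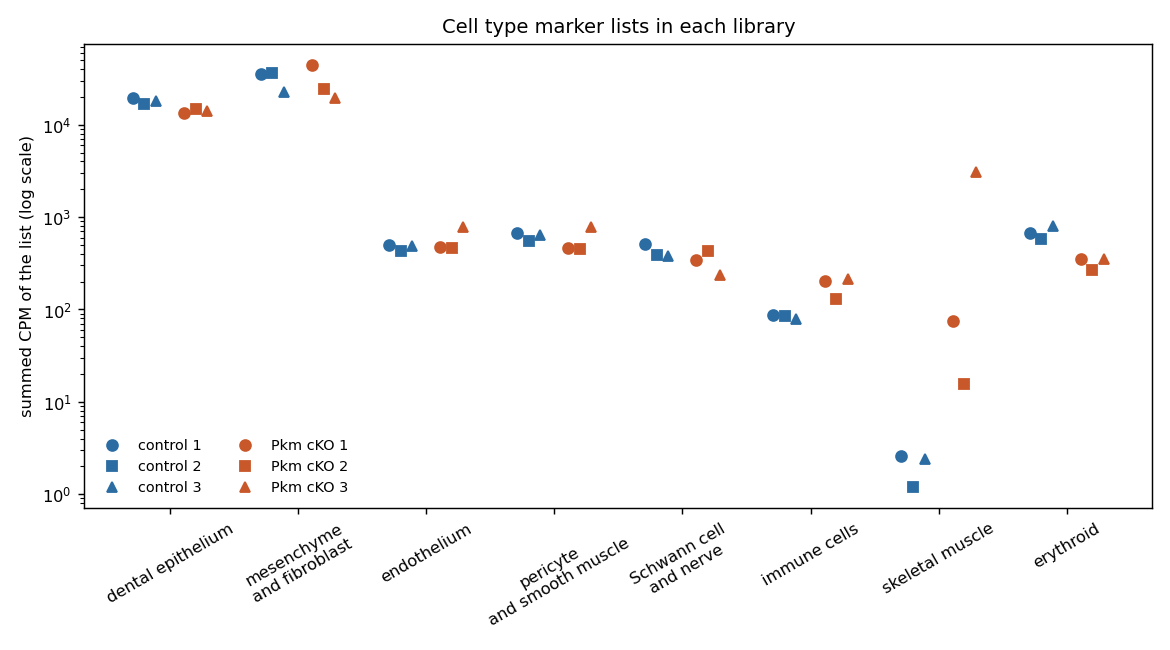
Summed CPM of each marker list (y axis, log scale) in the control (blue) and Pkm cKO (orange) libraries, with symbols for replicates 1 to 3. The dental epithelium sums are lower and the immune sums higher in all cKO libraries, and Pkm cKO replicate 3 reaches 3066 CPM of skeletal muscle genes.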

How the data were processed

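The deposited values are read counts, whole numbers for each gene in 6 libraries. The tools fastp and HISAT2 and the build mm39 are named in the submitters' processing notes. The counting program, strand setting and annotation are not given in these sources, so reads of overlapping or antisense genes were not separated. From the counts, genes were kept by filterByExpr, libraries scaled by TMM, and groups compared with edgeR's quasi-likelihood test with robust estimation (edgeR 4.0.16, R 4.3.3), two-sided, Benjamini-Hochberg adjusted over all tested genes. SE is the fold change over the square root of F, and 95% intervals use the t distribution. Alternatives were other scalings and filters, DESeq2 1.42.0, limma-voom (limma 3.58.1), edgeR without robust estimation, each library left out and a replicate block. The procedures were tested on simulated counts. No 2 libraries agreed within sampling noise (chi-square per gene at least 28.7). Counting error was small for the members, which had at least 1165 reads per library.

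The members, lists and tests were chosen with earlier results of these data known. Named genes were the 10 members, Pkm, Col17a1, Cd151 and, per related list, the 4 with the lowest p and the 3 with the highest mean CPM (3 for marker lists). Lama1, Klhl24, Evpl, Ppl, Macf1, Krt15, Cdh1, Epcam, Des, Tagln, Sox10, C1qc, Ttn and Myog are named outside this rule, after their values were seen. One item is not reported here, and the lists were counted without it.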

Additional observations from a re-analysis of the deposited data

How the results depend on the processing

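Over the 14 alternatives, 0 of the 10 members changed direction, and the median of their log2 fold changes ran from -0.35 to -0.22. Of the 140 values of single members, 136 stayed on the same side of the threshold and 4 passed it, which were Lama3 and Dst in DESeq2 (adjusted p 0.00676 and 0.0384), Dst without Pkm cKO replicate 1 and Dst with the replicate block. The number of members called was thus 2 in DESeq2, 0 to 1 with each library left out and 1 with the block. Over the alternatives the log2 fold change of Lama3 ran from -1.41 to -0.91 (adjusted p 0.00676 to 0.451), of Lamb3 from -0.77 to -0.46 (0.0506 to 0.443), of Itgb4 from -0.69 to -0.30 (0.108 to 0.599), of Dst from -1.18 to -0.68 (0.0229 to 0.498), of Lama5 from -0.25 to -0.13, of Lamc1 from -0.59 to -0.12, of Itga3 from 0.02 to 0.31, of Itga6 from -0.34 to -0.11, of Itgb1 from -0.38 to -0.12 and of Plec from 0.12 to 0.34.

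Over all genes edgeR called 88, of which 55 were higher and 33 lower. It called 55 with DESeq2-type size factors (39 higher, 16 lower), 75 with upper-quartile scaling (57 higher, 18 lower), 518 without a filter and 2 without robust estimation. DESeq2 called 1128 and limma-voom 2. With each library left out the count ran from 0 to 640. It was 0 without control replicate 1, 2 or 3 (1532, 1766 and 2495 genes at an unadjusted p under 0.05 in edgeR), and 640, 186 and 125 without Pkm cKO replicates 1, 2 and 3.

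Groups shared replicate numbers, and the deviations of same-numbered libraries correlated at 0.235, 0.0150 and 0.215. Pairs of unlike numbers ran from -0.278 to 0.0703, below the values of replicates 1 and 3. Control replicate 2 correlated best with Pkm cKO replicate 1 (0.0703). The labels state no pairing and the main fit used none, but a pairing was not excluded. With the replicate block edgeR called 708 genes and 1 member, Dst (-0.88, adjusted p 0.0229).

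Among 36 related genes 465 of 503 values kept direction and side of the threshold, 33 passed it and 5 changed direction. These were Sparc (-0.21 without Pkm cKO replicate 1, up to 0.30 with another library left out), Sdc1 (0.0045 with upper-quartile scaling, 0.0098 without control replicate 3, 0.11 without Pkm cKO replicate 1, down to -0.20 with another library left out) and Tln1 (-0.044 without control replicate 3, up to 0.19 with another library left out). The cause of these differences between settings was not tested. With 3 libraries a group, the intervals of Lama5, Lamc1, Itga3, Itga6, Itgb1 and Plec span 0 and include changes of up to the bounds given. Gene counts do not separate transcript forms.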
